A study of Mus musculus with 8 samples.

Results

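The genes described here were the endoplasmic reticulum (ER) chaperones, folding enzymes, degradation factors and stress sensors that make up and respond to the unfolded protein response, read in RNA sequencing libraries of mouse pancreatic ductal adenocarcinoma (PDAC) cells. Members were the rows of the count tables whose gene symbol equalled a name on a fixed list of 36 names, of which Manf and Armet are names of the same gene. This gave 35 genes of the 39179 in the tables, and all 35 were among the 16192 genes with enough reads to test. The iKPC mouse model gave 4 cell lines, numbered 1 to 4, and each was sequenced once with overexpression of WT-USP21 and once with overexpression of ED-USP21, for 8 libraries in all. The enzyme USP21 is known as a deubiquitinase. Cells of both groups carried the alleles ROSA_rtTA, a doxycycline-controlled transactivator, and p48-Cre, a Cre recombinase driven by a pancreatic promoter. The mouse background was FVB/C57Bl6 for lines 1 and 2, and C57BL/6 for lines 3 and 4. The meaning of ED is not spelled out in the labels, construct-free cells were not analysed here, and whether the cultures received doxycycline is not stated. With 1 library for each line and construct, the spread between libraries of the same line and construct was not measured. The p-values of the construct comparison refer to the spread over these 4 lines. In the comparisons among lines, both libraries of a line stood for that line. Those p-values refer to the spread between libraries of a line once the construct was fitted, not to the spread between lines.

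Proteins that enter the secretory pathway fold in the ER with the help of Hspa5 (BiP), its J-domain partners, the lectins calnexin and calreticulin, and the disulfide isomerases. When unfolded protein accumulates, the membrane sensors Ern1 (IRE1), Eif2ak3 (PERK) and Atf6 act through Xbp1 splicing, reduced translation and a released transcription factor to raise the genes of folding and of ER-associated degradation. Acinar and plasma cells, which secrete large amounts of protein, are known for high levels of this machinery. Gene counts do not separate spliced from unspliced Xbp1 and say nothing of sensor activation.

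The libraries held 72828184 to 107551210 counts on genes. Usp21 stood at 147, 944, 539 and 941 CPM (counts scaled to the TMM-adjusted library total) in WT-USP21 libraries of lines 1 to 4, against 1658, 3133, 1662 and 2721 CPM in ED-USP21 libraries, so each comparison of the constructs also compares Usp21 amounts. Keratin and E-cadherin levels were those of epithelial cells, with Krt8 at 2128 to 4068 CPM and Cdh1 at 289 to 545 CPM, while Epcam ranged from 0.0645 CPM to 5.35 CPM and was highest in both libraries of line 1. The acinar genes Ptf1a and Pnlip were at 0 in each library. So were the plasma cell gene Igkc, the fibroblast genes Dcn, Thy1 and Lum, and the islet genes Ins1, Ins2, Gcg, Sst and Ppy. Other genes of the acinar and fibroblast lists had reads. Summed over 11 acinar markers the level was 3.22 to 10.9 CPM in WT-USP21 libraries and 3.29 to 12.6 CPM in ED-USP21 libraries. The highest acinar gene was Cela1, at up to 11.2 CPM. Summed over 7 fibroblast markers the level was 6.85 to 14.98 CPM in WT-USP21 libraries and 4.78 to 7.84 CPM in ED-USP21 libraries. Pdgfra was the highest of these, at up to 5.82 CPM. Among 6 immune markers Cd68 was highest, at up to 15.49 CPM. The plasma cell markers were carried by Sdc1, which epithelial cells also express, at up to 678 CPM. In bulk samples such as these, fewer cells of a type and less RNA per cell cannot be told apart.

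Per length of exon, the most abundant members were the disulfide isomerase P4hb at 287 CPM per kb, the membrane-bound lectin chaperone Canx at 188, the luminal Hsp70 Hspa5 at 162, its soluble lectin counterpart Calr at 153, the ER form of Hsp90, Hsp90b1, at 140.3, and Pdia3, the isomerase that works with the lectins, at 122 (means of 8 libraries on the CPM per kb scale). Together the 35 members took 0.679%, 0.663%, 0.60% and 0.642% of the gene counts in WT-USP21 libraries of lines 1 to 4, against 0.676%, 0.694%, 0.595% and 0.669% in ED-USP21 libraries. The share was lowest in both libraries of line 3. Among the 7 oxidoreductases levels ran down to 2.82 CPM per kb for Pdia5 and 0.840 for Ero1lb, the ER oxidase best known from pancreatic secretory cells. Among the 9 degradation factors, Herpud1, which organises the ligase complex, led at 48.4 CPM per kb, and Derl3, a derlin abundant in secretory tissue, was lowest at 0.237. Xbp1 at 30.0 CPM per kb and the sensor Atf6 at 23.9 lay near the middle of the members. The sensors Ern1 at 12.5 and Eif2ak3 at 4.85 lay lower, and only Pdia5, Ero1lb and Derl3 were below Eif2ak3. Reads of Hsp90b1 are the least certain, since an opposite-strand gene, 1810014B01Rik, overlaps 10.3% of its exon length and it is not stated whether reads were counted by strand. For the other 7 members that share exon bases with another gene, on either strand, the gene that overlaps most covers at most 4.71%.

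**Figure D1:**
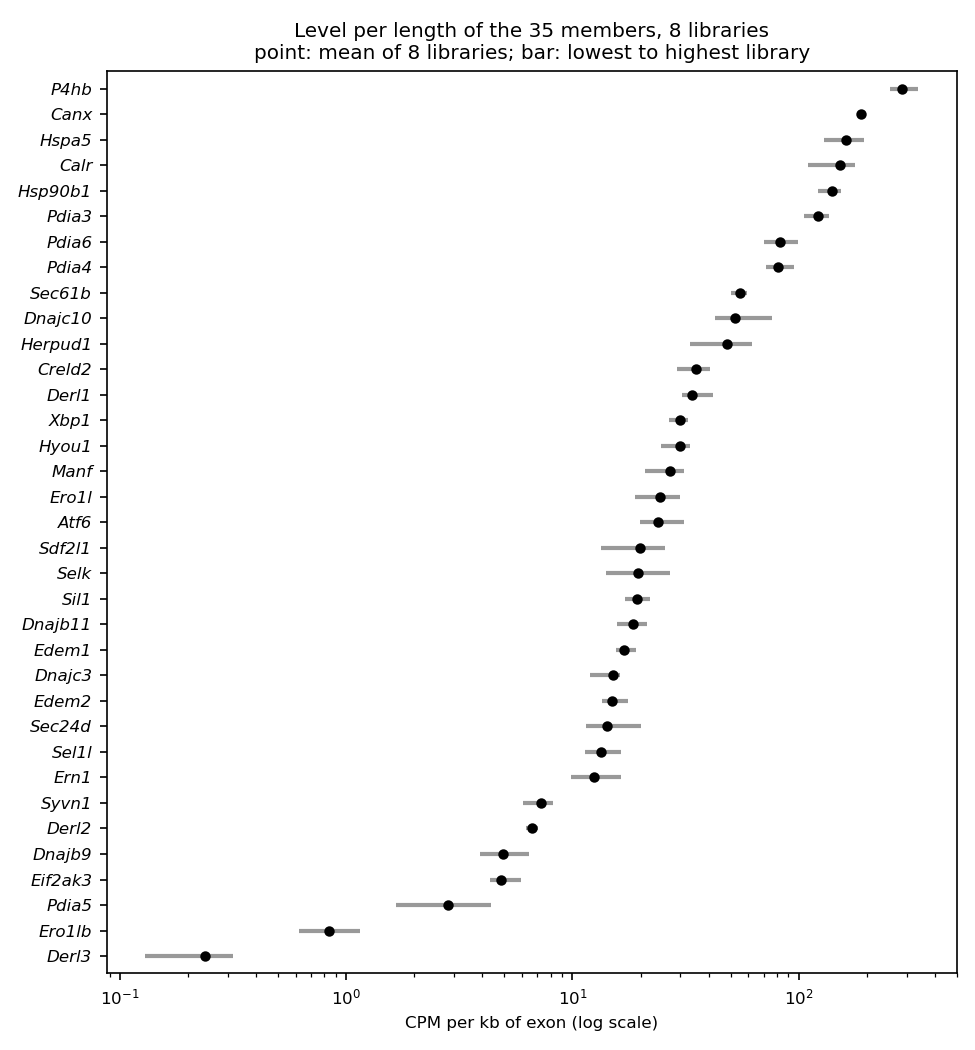
Mean level of each of the 35 members in CPM per kb of exon on a log axis, with bars from the lowest to the highest of the 8 libraries. P4hb lies at the top at 287 CPM per kb and Derl3 at the bottom at 0.237, and most bars are short beside the differences between genes.

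The promoters of these genes are the textbook place of the ER stress response element (ERSE), which ATF6 and XBP1 use together with NF-Y. RefSeq promoter windows on build GRCm38.p6, from 250 bases before to 50 bases after each start site, were found for 30 of the 35 members. Exact matches to the ERSE, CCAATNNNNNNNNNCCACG on either strand, stood in 10 of these 30 (33.3%), against 37 of the 27025 genes in the table (0.137%). ERSE-II, which is ATTGG and CCACG with 1 base of any kind between them, stood in another 2 members (6.67%) and in 12 genes of the table (0.0444%). The short block CCACG alone, which both elements contain, was in 25 of 30 members (83.3%) and in 35.5% of the genes. The XBP1-type element TGACGTGG was in 1 member, the COPII coat gene Sec24d, and in 0.714% of the genes. Matches are a description of these letters and not measured binding. The sites are shown because they split the members into those with and without an element, a split used below for the line comparison. Each is written in the direction that starts with CCAAT or ATTGG, with the fixed bases in capitals.
Hspa5 (chr2:34772025-34772043, gene on the + strand, bases -65 to -47): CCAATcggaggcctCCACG
Hsp90b1 (chr10:86705638-86705656, gene on the - strand, bases -212 to -194): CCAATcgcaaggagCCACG
Hsp90b1 (chr10:86705533-86705551, read on the opposite strand, bases -107 to -89): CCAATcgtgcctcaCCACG
Calr (chr8:84847075-84847093, gene on the - strand, read on the opposite strand, bases -162 to -144): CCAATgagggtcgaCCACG
Canx (chr11:50325800-50325818, gene on the - strand, bases -145 to -127): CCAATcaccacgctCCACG
Creld2 (chr15:88819520-88819538, gene on the + strand, read on the opposite strand, bases -126 to -108): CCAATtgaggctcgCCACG
Pdia6 (chr12:17266491-17266509, gene on the + strand, bases -98 to -80): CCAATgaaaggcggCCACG
Herpud1 (ERSE-II, chr8:94386377-94386387, gene on the + strand, bases -52 to -42): ATTGGgCCACG
Dnajb11 (ERSE-II, chr16:22857852-22857862, gene on the + strand, bases 8 to 18): ATTGGcCCACG
The other members with an ERSE were the J-domain gene Dnajc3, the ligase Syvn1, Ero1lb and Derl3, whose sites are not written out.

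For Hspa5 and Calr, the chaperones whose levels recur below, the 200 bases before the start site are given in the direction of the gene, with the fixed bases of the ERSE in capitals. Each stretch held 1 exact ERSE. In Calr it runs on the opposite strand, so that its capitals read CGTGG and then ATTGG.
Hspa5 (chr2:34771890-34772089, + strand): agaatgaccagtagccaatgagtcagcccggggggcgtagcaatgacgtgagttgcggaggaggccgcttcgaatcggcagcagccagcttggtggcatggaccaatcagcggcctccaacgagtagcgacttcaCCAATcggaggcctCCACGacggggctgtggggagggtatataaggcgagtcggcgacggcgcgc
Calr (chr8:84846932-84847131, - strand): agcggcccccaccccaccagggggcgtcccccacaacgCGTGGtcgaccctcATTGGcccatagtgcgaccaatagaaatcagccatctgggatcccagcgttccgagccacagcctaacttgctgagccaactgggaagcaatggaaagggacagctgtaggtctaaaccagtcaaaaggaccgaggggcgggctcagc

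Setting WT-USP21 against ED-USP21 asks whether this machinery differs with the construct. No member passed the edgeR quasi-likelihood test at a Benjamini-Hochberg adjusted p under 0.05, neither with the cell line as a block (0 of 35, against 0.0247% of all genes tested) nor without it (0 of 35, and 0 of 16192 genes). Differences were small: 30 of the 35 members had a 95% interval of the within-line log2 difference inside -0.5 to 0.5, against 54.4% of all genes. The members' intervals had a median width of 0.33, against 0.60 over all genes, and their median level was 97.4 CPM against 16.1 CPM. On the log2 scale the median of WT-USP21 minus ED-USP21 within lines was -0.03 for the members and -0.00 for all genes, with 10 members positive and 25 negative. In lines 1 to 4, 14, 11, 16 and 13 members were higher with WT-USP21, and the median size of a member's difference was 0.12, 0.09, 0.07 and 0.08, against 0.22, 0.18, 0.16 and 0.20 over all genes. The edgeR test for a construct difference that varied with the mouse background called 0 members and 0 of all genes, with 0 members and 2.32% of all genes under 0.05 before adjustment. DESeq2 called 0 members and 0.0432% of all genes there.

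At an unadjusted edgeR p under 0.05 within lines there were 3 of 35 members, Ern1, Pdia5 and Selk, a share close to the 8.28% of all genes. Without the block it was 1 member and 2.42% of all genes. DESeq2 with the line as a block called 2.56% of all genes. Among them were Ern1 (DESeq2 adjusted p = 0.00526) and Pdia5 (DESeq2 adjusted p = 0.0277), both higher with WT-USP21 (1.98% of all genes). It called no member lower (0.573% of all genes). edgeR also called both when line 1 was left out (adjusted p = 0.0488 for Ern1 and 0.0364 for Pdia5, with 4.57% of all genes called). Without line 2, 3 or 4 the edgeR adjusted p of Ern1 was 0.913, 0.655 and 0.999. That of Pdia5 was 0.976 without line 2. Each of these genes was called in 2 of the 10 settings tried within lines, the main fit included.

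Ern1 (ENSMUSG00000020715) encodes the sensor kinase and RNase that splices Xbp1. Its level was 134, 106, 117 and 102 CPM in WT-USP21 libraries of lines 1 to 4, against 91.9, 91.1, 96.8 and 80.5 CPM in ED-USP21 libraries. The lowest WT-USP21 library thus lay above the highest ED-USP21 library, and Ern1 was the only member whose groups did not overlap, where 1.07% of all genes lay apart in this direction. The means were 115 ± 14.3 and 90.1 ± 6.87 CPM (SD, n = 4 each), and the within-line log2 difference was 0.34 (SE 0.07, 95% interval 0.17 to 0.51, edgeR adjusted p = 0.274).

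Pdia5, a less abundant member of the disulfide isomerase family, had 12.1, 8.64, 6.78 and 8.32 CPM with WT-USP21, against 10.7, 5.89, 4.60 and 5.61 CPM with ED-USP21. WT-USP21 was the higher of the pair in 4 of 4 lines, and the groups overlapped because line 1 was high with both constructs. The within-line log2 difference was 0.46 (SE 0.11, 95% interval 0.18 to 0.74, edgeR adjusted p = 0.332). Selk, a selenoprotein of the ER membrane tied to degradation complexes, had 51.0, 32.4, 38.6 and 34.0 CPM with WT-USP21, against 48.1, 26.6, 36.6 and 26.9 CPM with ED-USP21. It too was higher in 4 of 4 lines, with 0.20 as the within-line log2 difference (SE 0.07, edgeR adjusted p = 0.550). These 3 were the members higher with WT-USP21 in each line (8.57%, against 9.02% of all genes).

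The chaperones themselves differed little. Hspa5 had 710.1, 691, 549 and 642 CPM with WT-USP21, against 753, 819, 559 and 772 CPM with ED-USP21. WT-USP21 was the lower of the pair in 4 of 4 lines, but the groups overlapped, and the means of 648 ± 71.9 and 726 ± 115 CPM (SD, n = 4 each) gave a within-line log2 difference of -0.16 (95% interval -0.32 to 0.01, edgeR adjusted p = 0.621). Sdf2l1, a cofactor of the BiP cycle, showed 14.8, 26.7, 16.4 and 25.1 CPM with WT-USP21, against 19.0, 28.4, 18.0 and 27.5 CPM with ED-USP21. Here the lines differed far more than the constructs (log2 -0.18, edgeR adjusted p = 0.613). Canx was nearly level across the libraries, at 872, 862, 881 and 871 CPM with WT-USP21, against 875, 900.4, 917 and 893 CPM with ED-USP21. P4hb had 915, 782, 748 and 728 CPM with WT-USP21, against 968, 808, 803 and 818 CPM with ED-USP21. Together with Pdia4 and Eif2ak3, these made 6 members lower with WT-USP21 in each line (17.1%, against 7.73% of all genes), and the within-line test called 0 of the 6. The 6 genes grouped as general chaperones (Hspa5, Hsp90b1, Hyou1, Sdf2l1, Manf and Creld2) and both lectins had within-line estimates between -0.18 and -0.03. Without line 1, those of Manf (0.045) and Creld2 (0.064) were positive.

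Calr, the soluble lectin chaperone, had 499.7, 446, 315 and 420.3 CPM with WT-USP21, against 485, 510.4, 345 and 494 CPM with ED-USP21. WT-USP21 was the lower of the pair in 3 of 4 lines (log2 -0.13, edgeR adjusted p = 0.698). Hsp90b1 had 491, 574, 545 and 579.6 CPM, against 580.0, 621, 540.2 and 596 CPM with ED-USP21, and Pdia3 had 331, 390.0, 388 and 403 CPM, against 339, 429, 361 and 427 CPM. The groups overlapped for both genes.

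Ero1l, the oxidase that recharges the isomerases, had 158, 105, 125 and 99.9 CPM with WT-USP21, against 148, 125, 151 and 117 CPM with ED-USP21, lower in lines 2 to 4 and higher in line 1 (log2 -0.16, edgeR adjusted p = 0.671). The degradation factor Herpud1 had the same pattern, at 145, 122, 77.4 and 96.5 CPM with WT-USP21, against 119, 140.4, 91.4 and 111 CPM with ED-USP21. Its line 1 difference was 0.29 on the log2 scale and those of lines 2 to 4 lay between -0.24 and -0.21, so that the mean of -0.09 (edgeR adjusted p = 0.881) joins opposite values.

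Of the other sensors, Atf6 had 288, 186, 252 and 184 CPM with WT-USP21, against 242, 186, 239 and 190.4 CPM with ED-USP21. Eif2ak3, the kinase that slows translation, had 34.3, 26.0, 26.3 and 27.0 CPM, against 35.6, 27.4, 29.6 and 27.7 CPM with ED-USP21. Xbp1, the substrate of Ern1, had 104, 105, 86.5 and 93.2 CPM, against 96.8, 102, 93.0 and 98.9 CPM with ED-USP21. Its means of 97.2 ± 8.84 and 97.7 ± 3.86 CPM (SD, n = 4 each) were close, with a log2 difference of -0.01 and a 95% interval of -0.16 to 0.14.

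The widest intervals belonged to low members. Derl3 held 26 to 60 counts per library and had a 95% interval of -0.89 to 0.71 for its log2 difference, and Ero1lb, at 4.12 to 7.69 CPM, one of -0.52 to 0.31. For Dnajb9, a J-domain cofactor that represses Ern1, the interval was -0.18 to 0.63. It had 16.4, 11.0, 13.2 and 13.3 CPM with WT-USP21, against 9.97, 11.98, 14.4 and 9.95 CPM with ED-USP21, higher with WT-USP21 in lines 1 and 4 and lower in lines 2 and 3. At this depth a difference of the size seen for Ern1 was not detectable for Derl3.

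**Figure D2:**
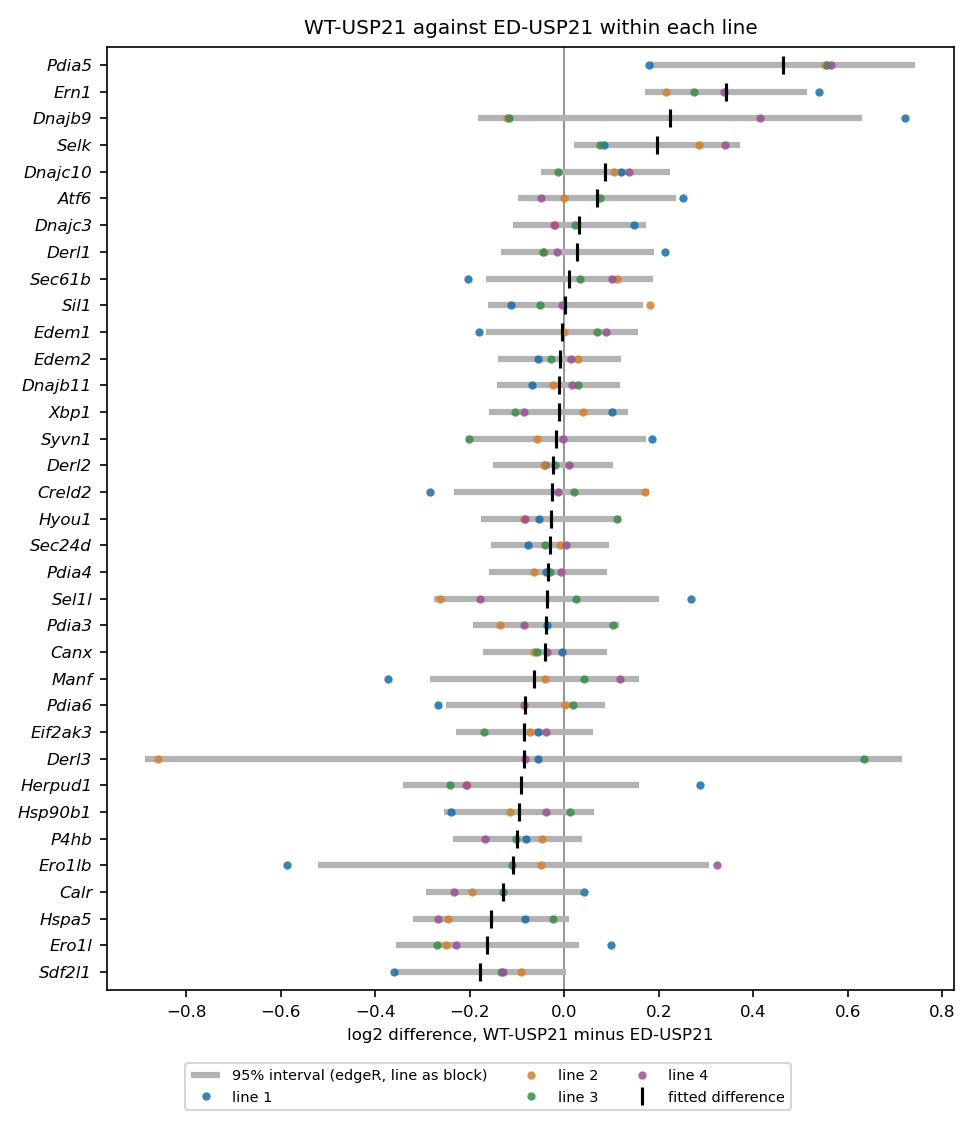
Log2 difference WT-USP21 minus ED-USP21 of each member in each of the 4 lines (coloured points), with the edgeR estimate with line as a block (tick) and its 95% interval (bar). Pdia5 (0.46), Ern1 (0.34) and Selk (0.20) have intervals above 0, and most other intervals span 0 and lie inside -0.5 to 0.5.

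**Figure D3:**
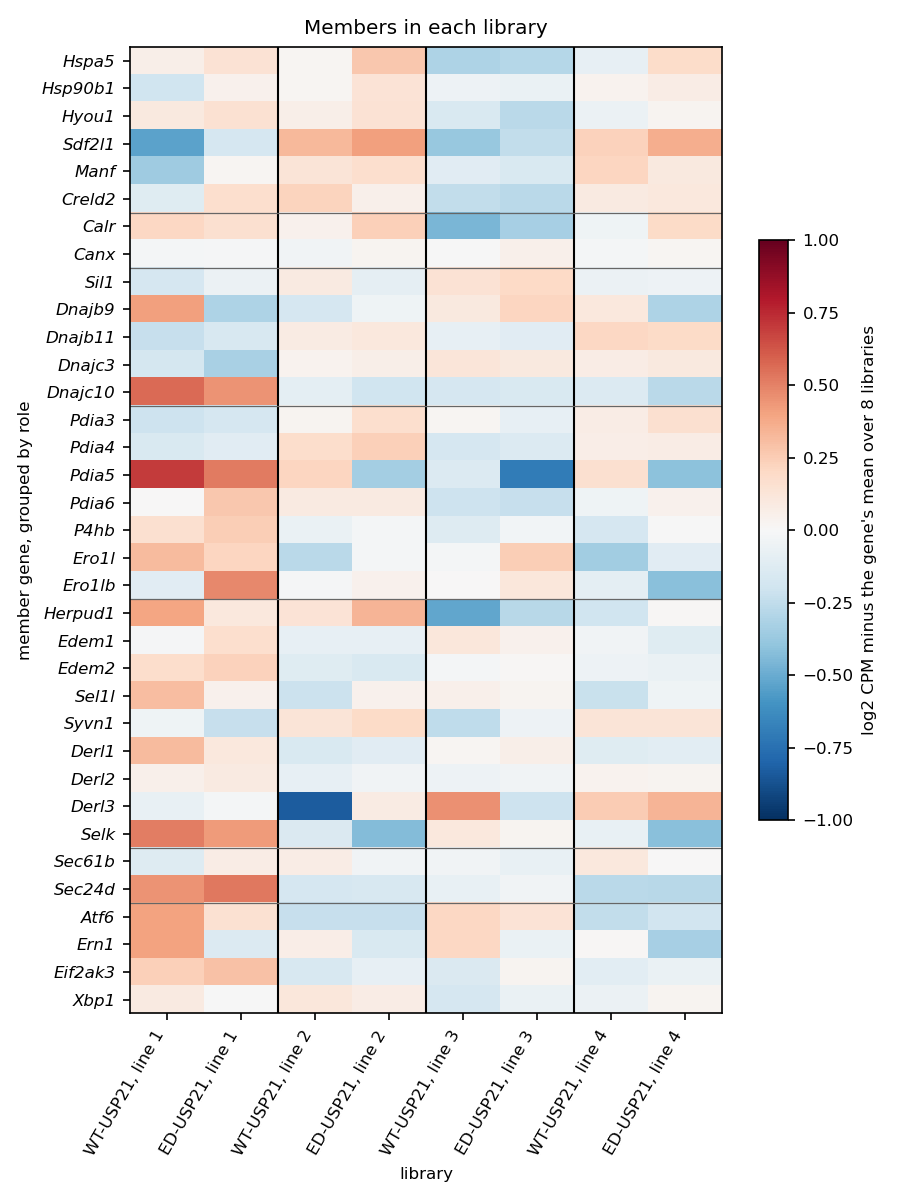
Log2 CPM of each member minus its mean over the 8 libraries, with members in rows by role and the libraries of each line side by side, WT-USP21 left of ED-USP21. Colours change more between lines than between the constructs of a line, as for Dnajc10 and Sec24d in line 1 and Calr and Hspa5 in line 3.

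The lines were then compared with each other, with the construct as a term. Both libraries of a line share its cells and stood for that line, so these tests apply to these 4 lines only. The edgeR test of any difference among the 4 lines called 11 of 35 members (31.4%), close to the 24.8% of all genes called. The 11 were the BiP cofactor Sdf2l1, Calr, the J-domain proteins Dnajb11 and Dnajc10, the isomerases Pdia4 and Pdia5, Herpud1, Selk, the COPII cargo adaptor Sec24d, and the sensors Atf6 and Eif2ak3. Without line 1 the test called 2 members, Sdf2l1 and Herpud1, and 0.398% of all genes. It called 6 members without line 2 (15.4% of all genes), 4 without line 3 (18% of all genes) and 6 without line 4 (20.1% of all genes). DESeq2 called 20 members and 40.4% of all genes. Over all 8 libraries 33 of the 35 members varied by less than 2-fold from the lowest to the highest library, where 54.1% of all genes did. The median was 1.40-fold for members and 1.86-fold for all genes. Members also had a higher median level, 97.4 CPM against 16.1 CPM, and the genes compared were not matched for level.

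The contrast of line 1 with the mean of lines 2 to 4 was chosen with earlier results of these data known. Line 1 stood apart from the others in these cells as a whole, with 40.9% of all genes called in line 1 against the mean of lines 2 to 4. Members followed this background, with 15 of 35 called (42.9%): 11 were higher in line 1 (22.4% of all genes were) and 4 lower (18.5% of all genes were). Epcam was also highest in line 1, and its part in these differences was not tested. Dnajc10, the J-domain reductase that unfolds degradation substrates, had 381 CPM with WT-USP21 and 351 CPM with ED-USP21 in line 1, against 213 to 241 CPM (median 229.8) in the other 6 libraries (log2 0.68, SE 0.06, edgeR adjusted p = 0.000779). Sec24d had 120.4 and 127 CPM, against 72.8 to 86.0 CPM (median 78.7) in the other libraries (log2 0.65, edgeR adjusted p = 0.00065). The libraries of line 1 lay above all the others for both genes, as they did for 9 of 35 members (25.7%) and 26% of all genes.

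Selk, at 51.0 and 48.1 CPM in line 1, against 26.6 to 38.6 CPM (median 33.2), was higher by 0.62 on the log2 scale (edgeR adjusted p = 0.00237). Pdia5 was higher by 0.81 (adjusted p = 0.00445 in edgeR). Among the sensors, Eif2ak3 had 34.3 and 35.6 CPM in line 1, against 26.0 to 29.6 CPM (median 27.2), and was higher by 0.36 (edgeR adjusted p = 0.00899). Atf6 had 288 and 242 CPM, against 184 to 252 CPM (median 188), and was higher by 0.37 (edgeR adjusted p = 0.0123), although line 3 overlapped it. Ern1 was not called in line 1 (log2 0.18, edgeR adjusted p = 0.122).

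The other members higher in line 1 were Ero1l (log2 0.36), Derl1 (0.28), the mannosidase-like lectin Edem2 (0.27), P4hb (0.27) and Calr (0.25). Lower in line 1 were Sdf2l1 (log2 -0.47), Dnajc3 (-0.33), Dnajb11 (-0.26) and Pdia3 (-0.25). Dnajc3, an inhibitor of eIF2 kinases and BiP cochaperone, had 68.4 and 61.7 CPM in line 1, against 79.1 to 83.8 CPM (median 81.9) in the other libraries. Dnajb11, a BiP cochaperone that binds unfolded chains, had 50.8 and 53.2 CPM, against 55.1 to 68.9 CPM (median 63.7). Both libraries of line 1 were below all the others for these genes and for Pdia3 (3 of 35 members, 8.57%, against 24.3% of all genes). The test called 8 members without line 2 (27.4% of all genes), 14 without line 3 (33% of all genes) and 6 without line 4 (30% of all genes).

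The contrast of line 3 with the mean of the other lines was added after the data were seen. Both libraries of line 3 were the lowest of the 8 for 7 members (20%, against 6.26% of all genes): Hspa5, its nucleotide exchange factor Hyou1, Creld2, Calr, Pdia6, Herpud1 and Xbp1. edgeR called 2.29% of all genes in this contrast, and 1 member, Calr, which was lower in line 3 (0.716% of all genes). It called 0 members higher (1.57% of all genes). Calr had 315 CPM with WT-USP21 and 345 CPM with ED-USP21 in line 3, against 420.3 to 510.4 CPM (median 489.8) in the other 6 libraries (log2 -0.53, SE 0.08, edgeR adjusted p = 0.0370). Its libraries in line 3 lay below all the others.

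DESeq2 called 10 members lower in line 3 and 0 higher, where it called 5.44% of all genes lower and 6.83% higher. The 10 were Hspa5, Hyou1, Sdf2l1, Creld2, Calr, Dnajc10, Pdia4, Pdia5, Pdia6 and Herpud1. edgeR called 5 members without line 1 (Calr, Sdf2l1, Creld2 and Herpud1 lower, and Atf6 higher), 0 without line 2 and 0 without line 4, where it called 2.65%, 1.73% and 3.49% of all genes. The log2 difference of Calr stayed between -0.55 and -0.50 in the 8 settings tried, and that of Hspa5 between -0.42 and -0.37. Without line 2 and without line 4 the edgeR adjusted p of Calr was 0.0736 and 0.0506. Pdia5 had the lowest estimate in line 3 (log2 -0.56, edgeR adjusted p = 0.0965), which was -0.32 without line 1. For Dnajc10 the line 3 difference was -0.21 on the log2 scale, and 0.014 without line 1. Hspa5 had 549 and 559 CPM in line 3, against 642 to 819 CPM (median 731) in the other libraries (log2 -0.40, SE 0.08, edgeR adjusted p = 0.0693). Herpud1 had 77.4 and 91.4 CPM, against 96.5 to 145 CPM (median 120.4), a log2 difference of -0.53 (edgeR adjusted p = 0.0842). The libraries of line 3 did not overlap with the others for either gene.

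Creld2, a stress-induced ER protein, had 40.2 and 39.6 CPM in line 3, against 43.9 to 55.5 CPM (median 51.0; log2 -0.35, edgeR adjusted p = 0.130). Hyou1 had 193 and 179 CPM, against 207 to 239 CPM (median 227; log2 -0.28, edgeR adjusted p = 0.101), and the isomerase Pdia6 had 267 and 264 CPM, against 300.2 to 373 CPM (median 323; log2 -0.29, edgeR adjusted p = 0.119). Sdf2l1 was low in lines 1 and 3, at 16.4 and 18.0 CPM in line 3 and 14.8 and 19.0 CPM in line 1, against 25.1 to 28.4 CPM in lines 2 and 4. By role, the 6 genes grouped as general chaperones (Hspa5, Hsp90b1, Hyou1, Sdf2l1, Manf and Creld2) had a median log2 difference of -0.31 in line 3. All 6 were negative. The 9 degradation factors had a median of 0.05, and the J-domain proteins with Sil1 one of 0.15. The roles were assigned here, and the exchange factors Hyou1 and Sil1 fall in different groups, so these medians depend on the assignment. Sil1, the other BiP exchange factor, was the 1 member highest in both libraries of line 3 (6.15% of all genes were), at 73.2 and 75.9 CPM, against 58.9 to 70.4 CPM (median 63.7), and Atf6 was not low (log2 0.23, edgeR adjusted p = 0.179).

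Named above are the 12 members with an exact ERSE or ERSE-II. Of these, 5 were lowest in both libraries of line 3 (Hspa5, Creld2, Calr, Pdia6 and Herpud1). The median log2 difference of the 12 in line 3 was -0.17. Of the 18 members with a promoter window and no such match, Xbp1 was lowest there, with a median of -0.06. Negative differences made 8 of the 12 and 12 of the 18. Of the 5 members without a promoter window, 2 were negative, and Hyou1 was lowest in line 3. The ERSE class was not uniform: Canx, Hsp90b1, Dnajc3 and Dnajb11 overlapped with the other lines, at log2 0.03, -0.08, 0.15 and -0.13. Syvn1, Ero1lb and Derl3 also overlapped, at log2 -0.20, 0.06 and 0.20. In line 1 the order of the medians was the other way, at 0.01 for members with a match and 0.21 for those without, and 8 of the 18 without a match but 0 of the 12 with one were highest in both libraries of line 1 (9 of all 35 members, 25.7%, against 26% of all genes). Between the constructs the medians were -0.08 and -0.02. These splits were made after the values were seen and carry no test. Lines 2 and 4 called 0 members against the mean of the others (2.1% and 1.61% of all genes called).

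**Figure D4:**
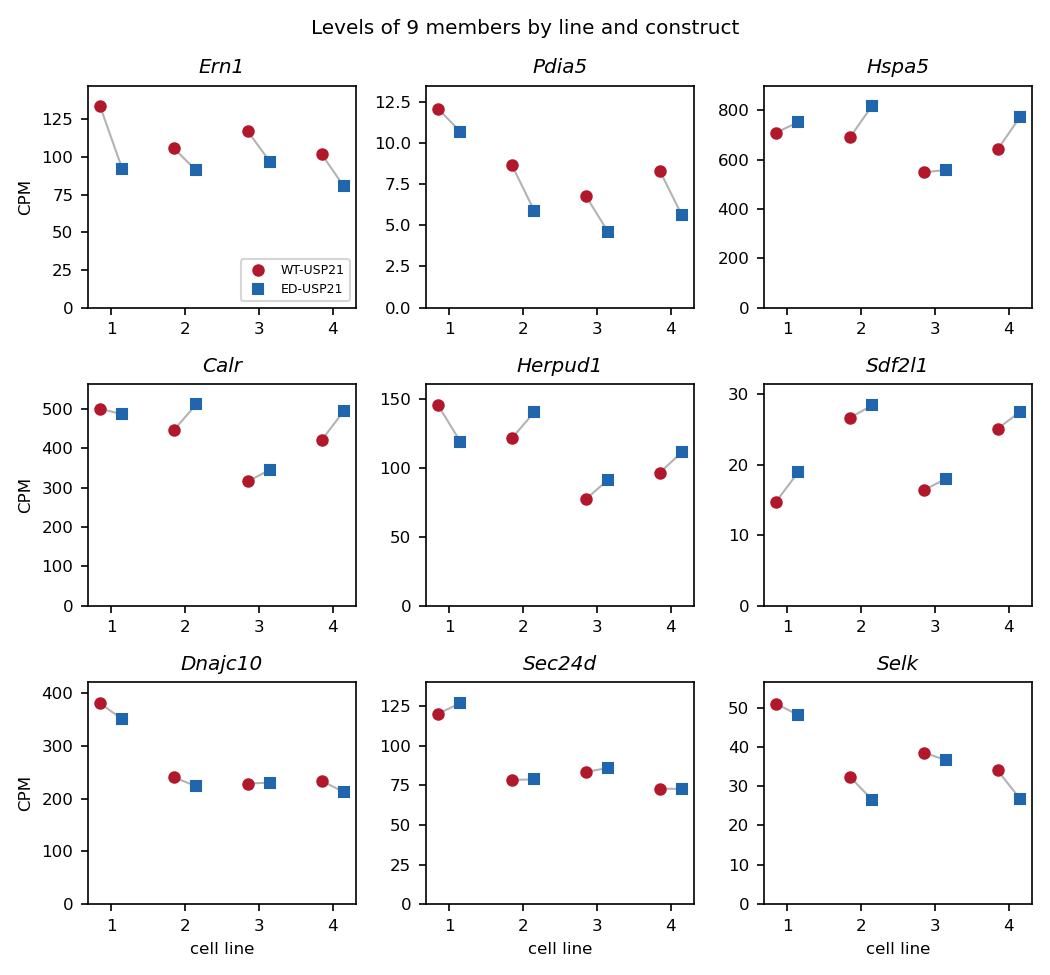
CPM of 9 members in each line on axes that start at 0, with WT-USP21 as red circles left of ED-USP21 as blue squares. Ern1 and Pdia5 are higher with WT-USP21 in each line, Calr, Hspa5 and Herpud1 are lowest in line 3, and Dnajc10, Sec24d and Selk are highest in line 1.

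**Figure D5:**
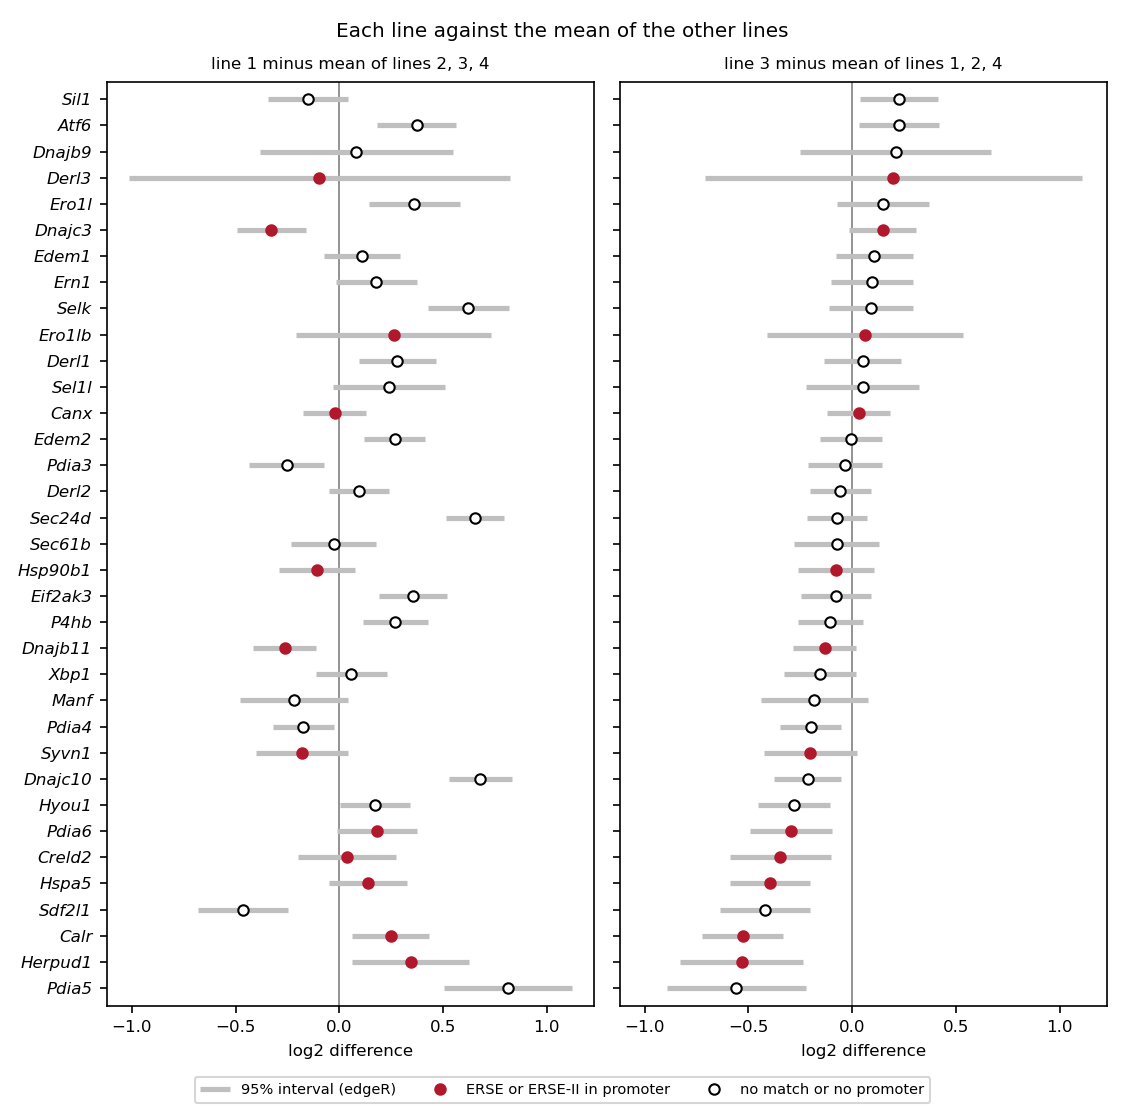
Log2 difference of line 1 (left) and line 3 (right) from the mean of the other lines for each member, with 95% intervals from edgeR, and members with an exact ERSE or ERSE-II in red. Pdia5 (-0.56), Herpud1 (-0.53), Calr (-0.53), Sdf2l1 (-0.42) and Hspa5 (-0.40) lie lowest on the right, and of these Pdia5 and Sdf2l1 had no match, while Pdia5 (0.81), Dnajc10 (0.68) and Sec24d (0.65) lead on the left.

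Other genes of the pathway were read from 9 lists. Within lines, edgeR called 0 genes in each of the 9, as for the members. The list of the PERK-ATF4 branch, the integrated stress response, had 10 of its 13 tested genes higher in line 1 and 0 lower, with a median log2 difference of 1.27, where 22.4% of all genes were called higher. Atf4, its transcription factor, had 804 CPM with WT-USP21 and 838 CPM with ED-USP21 in line 1, against 373 to 502 CPM in the other 6 libraries (log2 0.94, edgeR adjusted p = 0.000408). Ddit3 (CHOP), a target linked to cell death, had 68.8 and 41.2 CPM in line 1, against 13.6 to 18.6 CPM (log2 1.77, edgeR adjusted p = 0.000576). Atf3 was higher by 3.20 on the log2 scale (edgeR adjusted p = 0.000349). Between the constructs, Atf4 was lower in the WT-USP21 library of 4 of 4 lines, at -0.19 on the log2 scale (SE 0.07, edgeR adjusted p = 0.497).

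In the remaining lists the counts in line 1 were 13 higher and 3 lower of 23 further degradation factors, 9 and 6 of 32 folding factors, 7 and 3 of 24 translocon and signal peptidase genes, 5 and 4 of 22 glycosylation genes, and 7 and 5 of 23 genes of ER exit, where 22.4% of all genes were called higher and 18.5% lower. Mbtps1, the protease that cleaves ATF6 in the Golgi, was higher in line 1 (log2 0.62, edgeR adjusted p = 0.000814), in a list with 4 of 10 higher and 1 lower. The cytosolic and mitochondrial heat shock list had 5 of 15 tested genes lowest in both libraries of line 3, against 6.26% of all genes. Of these, Hsph1, a cytosolic exchange factor, was called lower there (0.716% of all genes were), with 46.1 and 42.4 CPM in line 3, against 58.5 to 73.8 CPM in the other libraries (log2 -0.60, edgeR adjusted p = 0.0361). In each of the other lists 0 to 2 tested genes were lowest in line 3. Among the folding factors, Fkbp10 was called higher in line 3 (log2 1.21, edgeR adjusted p = 0.0243) and Prdx4 lower (log2 -2.80, edgeR adjusted p = 0.0148). Prdx4 had 0.651 and 0.333 CPM in line 3, against 46.1 and 63.6 CPM in line 1 and 0.774 to 0.940 CPM in lines 2 and 4. The list of links to cell death had 2 of 11 genes higher and 3 lower in line 1.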

How the data were processed

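The authors deposited raw read counts per gene in whole numbers. The submitters' processing notes name CASAVA, STAR, TopHat, Cufflinks, HTSeq and build mm9, without versions or roles. Of the rows, 3 name no gene, and reads in no gene made 11.4% to 20.6% of the counts. Neither library sizes nor tests included them. Counts were scaled by TMM and tested with edgeR 4.0.16 (R 4.3.3, quasi-likelihood, genes with few counts removed by its default filter), with Benjamini-Hochberg adjustment over all genes tested. Members were read from that fit. DESeq2 1.42.0, RLE scaling, other filters, the fit with or without the line as a block and each line or library left out were alternatives. Each SE was the absolute log2 difference over the square root of F. Log2 CPM used a prior count of 2. Exon lengths and overlaps came from GENCODE on GRCm38 and promoter sequences from RefSeq, so no coordinate is on mm9.

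The labels give both libraries of a number the same cell line, so the line pairs them. Across genes, what remained of the 2 libraries of a line after their group mean was taken off correlated at 0.770, 0.503, 0.468 and 0.347 in lines 1 to 4. In line 4 the WT-USP21 library correlated best with line 2. Neither separate cultures nor separate mice are given for the lines.

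The members, the lists and the line 1 contrast were chosen with earlier results of these data known. Members were named in full by level, by p within lines and by p among lines, with the sensors and Xbp1. Genes of other lists were taken from those with the smallest p. The within-line fit was run on simulated data, and so was the line contrast added after the data were seen. The outcomes are not reported here, and no such run is reported for the other comparisons among lines. Another allele that all the cells share and 1 marker gene are not reported here.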

Additional observations from a re-analysis of the deposited data

Results flagged for a closer look

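In 7 of the 70 groups of 4 libraries examined (35 members in either construct), 1 library lay far from the other 3, where chance gives about 3.5, and 5 of the 7 were libraries of line 1. Dnajc10 was high in line 1 with both constructs, at 381 CPM with WT-USP21 (the next library had 241 CPM) and 351 CPM with ED-USP21 (next 231 CPM). In line 1, Eif2ak3 was high with WT-USP21, at 34.3 CPM (next 27.0 CPM), and P4hb was high with ED-USP21, at 968 CPM (next 818 CPM). Dnajc3 was low in line 1 with ED-USP21, at 61.7 CPM (next 80.3 CPM). In line 3 with ED-USP21, Calr was low at 345 CPM (next 485 CPM) and Sil1 was high at 75.9 CPM (next 63.9 CPM). For each of these 6 genes, both libraries of the line lay on the same side of the other 6 libraries.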

How the results depend on the processing

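The count of members called between the constructs was 0 with and without the line as a replicate block, with RLE scaling, without the filter and with a minimum mean of 5 CPM. It was 2 within lines with DESeq2 and 0 to 2 with a line left out. The members' median log2 difference stayed between -0.03 and -0.01 in each alternative. Among the 4 lines, DESeq2 called 20 members (40.4% of all genes), and leaving out a line gave 2 to 6 (0.398% to 20.1% of all genes). For line 1 the range with another line left out was 6 to 14 (27.4% to 33% of all genes), and for line 3 it was 0 to 5 (1.73% to 3.49% of all genes), with 10 from DESeq2 (12.3% of all genes). With another line left out, the line 3 log2 difference of Dnajc10 ranged from -0.34 to 0.014, that of Sec24d from -0.21 to 0.16 and that of Eif2ak3 from -0.15 to 0.047, each positive only without line 1. That of Selk ranged from -0.042 (without line 2) to 0.34, and was -0.016 without line 4. The cause was not tested. Depth limited Derl3 most.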
